A study of Mus musculus with 4 samples.

Results

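This section compares 2 small RNA libraries of mouse embryonic fibroblasts (MEFs) that were grown without doxycycline (dox) and differed in genotype. One came from cells labelled shLuc.1309;ROSA-rtTA, and is called rtTA, -dox here. The other came from cells labelled shLuc.1309, and is called no rtTA, -dox. Both therefore carry shLuc.1309, a short hairpin RNA against luciferase, an enzyme that mouse cells do not have. They are 2 of the 4 libraries of the series, and the other two are the same genotypes with dox. All 508 microRNAs listed in any of the 4 libraries were compared, with 0 for those missing from a table. The labels give no dox dose or time, and they name no separate embryos or cultures. With 1 library per group there is no replicate check, so every value below compares these libraries and not the genotypes as such.

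rtTA is the reverse tetracycline transactivator, a fusion protein that binds tetracycline-responsive promoters and activates them when dox is present. ROSA marks its insertion at Rosa26, a locus that is transcribed in most mouse tissues, so the cells with rtTA can make the activator from their own broadly active promoter. Without dox the activator should bind its promoter weakly, and this pair of libraries is the control for what the genotype alone goes with. MicroRNAs are cut from hairpin precursors by Drosha and Dicer, and 1 or both arms of the hairpin are loaded into Argonaute proteins. The loaded arm finds its messenger RNA targets mainly through the seed, bases 2 to 8 from its 5′ end, and a name ending in * marks the arm that is usually the rarer. Fibroblasts are mesenchymal cells, rich in miR-21, miR-22, miR-143 and the let-7 and miR-29 families.

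The sequences that carry the comparison are the mature microRNAs that differed by 2-fold or more. They are given 5′ to 3′ as deposited, with T for U, and capitals mark the seed. Locations are those of RefSeq on GRCm38.p6, and host genes are from GENCODE M21. miR-1, the seventh such microRNA, is named only.
miR-106b*: cCGCACTGtgggtacttgctgc
miR-667: tGACACCTgccacccagcccaag
miR-574-3p: cACGCTCAtgcacacacccaca
miR-139-5p: tCTACAGTgcacgtgtctccag
miR-702: tGCCCACCctttaccccgctc
let-7d*: cTATACGAcctgctgcctttct

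miR-106b* lies at chr5:138165746-138165767 on the minus strand, in an intron of Mcm7, which codes for a subunit of the replicative helicase. miR-667 lies at chr12:109720061-109720083 on the plus strand, in the large imprinted microRNA cluster between Dlk1 and Dio3. miR-574-3p lies at chr5:64970364-64970385 on the plus strand, in an intron of Fam114a1. miR-139-5p lies at chr7:101475382-101475403 on the plus strand, in an intron of the phosphodiesterase gene Pde2a. miR-702 lies at chr5:136991520-136991540 on the plus strand, in an intron of Plod3, which codes for a collagen lysyl hydroxylase. let-7d* lies at chr13:48536024-48536045 on the minus strand, inside an exon of the noncoding gene 6720427I07Rik. None of the 7 has another listed microRNA within 2 mismatches, so their counts are not shared with a near-identical copy.

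The no rtTA library held 6378964 endogenous microRNA counts and the rtTA library 8774056, and values are given as counts per 1000000 of these (CPM). The libraries listed 462 and 476 microRNAs, of which 451 were common to both. The 36 listed in 1 of them only had at most 5 counts. Ratios are rtTA over no rtTA on the log2 scale, with a 95% exact binomial interval that covers counting error only. They were read for the 372 microRNAs whose mean over the 4 libraries reached 3.14 CPM, which is 20 counts in the shallowest library. These held 99.99% of the endogenous counts of both libraries. The 22 fibroblast and mesenchymal microRNAs past that floor summed to 496458 CPM without rtTA and 479355 CPM with it, about the same in both.

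The 2 libraries without dox had closely similar microRNA levels. The median ratio was -0.07, with 155 microRNAs above 0 (41.7%) and 217 below (58.3%). Of the 372, 239 lay within 1.25-fold of equality, and the median distance from 0 was 0.23. Because the counts are deep, 241 intervals excluded equality, 101 above (27.2%) and 140 below (37.6%). Such an interval says that the counts of these libraries differ, and it holds no spread between cultures.

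Closeness followed abundance. The 61 microRNAs with a mean under 100 counts had a median distance from 0 of 0.38 and a median interval half-width of 0.61, so counting error alone spans most of their differences. For the 82 with at least 10000 counts the median distance was 0.18 and the half-width 0.025. Their distance thus exceeded the counting error, and what part of it is spread between cultures cannot be told with 1 library each. The largest distance was 1.39 in the rarest class and 0.73 in the most abundant.

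**Figure D1:**
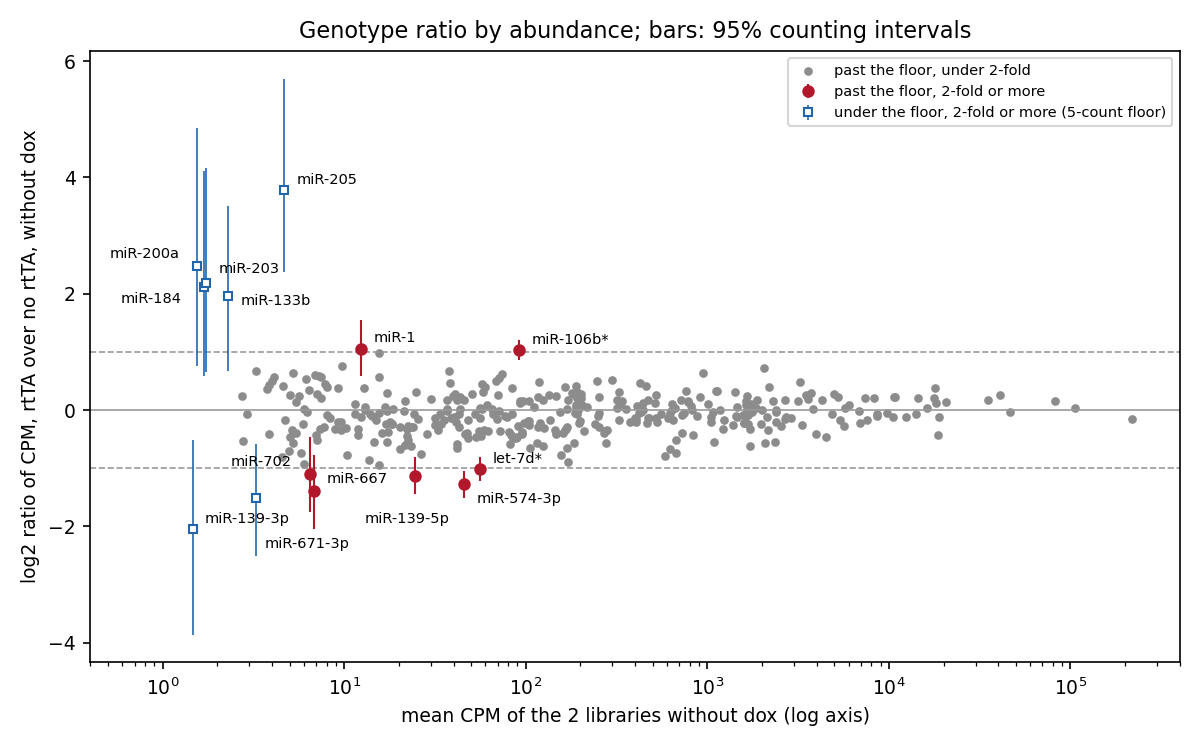
Each point is a microRNA, with its mean CPM in the 2 libraries without dox on a log axis and its log2 ratio of rtTA over no rtTA; dashed lines mark 2-fold and bars are 95% counting intervals. The 7 filled red points lie at or beyond 2-fold, all at a mean under 100 CPM, and open squares mark rarer microRNAs under the floor that are 2-fold or more apart with a floor of 5 counts.

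The 10 most abundant microRNAs took 60.9% of the endogenous counts in each library. Among them miR-21 had a ratio of -0.15, miR-22 0.04 and miR-143 0.15. miR-29b stood at -0.04, miR-29a at 0.26, miR-24 at 0.18 and let-7i at 0.15. let-7c stood at 0.13 and miR-125b-5p at -0.12, and miR-199b, at -0.42, was the farthest from 0 of the 10. These 10 were thus all within 1.5-fold between the libraries.

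The luciferase shRNA was counted apart from the endogenous microRNAs. It had 4630 counts without rtTA and 6898 with it, or 726 and 786 CPM, a ratio of 0.12 (0.06 to 0.17) or 1.08-fold (1.04 to 1.12). In these uninduced cells the genotypes thus differed in the shRNA by less than in most microRNAs: 88 of the 372 had a ratio nearer 0. With dox, the rtTA library held 31.5-fold more of it (30.6 to 32.4) than the library without rtTA, so the shRNA was induced in the library labelled rtTA and not in the other. No listed RNA reports on rtTA itself in the cells without dox.

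A microRNA was called different where the ratio was at least 2-fold and its interval excluded equality. Of 372, 7 were called (1.88%), 2 higher with rtTA (0.538%) and 5 lower (1.34%). At 1.5-fold the calls were 9 higher (2.42%) and 26 lower (6.99%).

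miR-106b*, the minor arm of a hairpin in the Mcm7 intron, rose. It had 60.0 CPM without rtTA and 123 with it, from 383 and 1077 counts, a ratio of 1.03 (0.86 to 1.20). The libraries with dox had 80.7 CPM without rtTA and 123 with it, a ratio of 0.61 (0.45 to 0.76). Both libraries with rtTA were thus above both without it.

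miR-1, which is characteristic of skeletal and heart muscle, also rose. It had 8.0 CPM (51 counts) without rtTA and 16.6 CPM (146 counts) with it, a ratio of 1.06 (0.59 to 1.55). The libraries with dox had 7.65 and 7.86 CPM, a ratio of 0.04 (-0.53 to 0.61). The rtTA library without dox therefore stood above the other three, which lay close together.

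miR-667 fell most among the 372. It had 9.88 CPM (63 counts) without rtTA and 3.76 CPM (33 counts) with it, 2.63-fold lower, a ratio of -1.39 (-2.05 to -0.76). With dox it had 8.26 and 4.66 CPM, a ratio of -0.82 (-1.48 to -0.18). Both libraries with rtTA were below both without it, on few counts.

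miR-574-3p fell from 64.7 CPM (413 counts) without rtTA to 26.8 CPM (235 counts) with it, 2.42-fold lower, a ratio of -1.27 (-1.51 to -1.04). With dox the values were 45.7 and 16 CPM, a ratio of -1.52 (-1.83 to -1.21). The other arm of its hairpin, miR-574-5p, had 198 and 116 CPM without dox, a ratio of -0.77 (-0.89 to -0.65). It had 114 and 197 CPM with dox, a ratio of 0.79. Both arms were lower with rtTA without dox, and with dox the arms lay on opposite sides of 0.

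miR-139-5p fell from 33.5 CPM (214 counts) without rtTA to 15.4 CPM (135 counts) with it, 2.18-fold lower, a ratio of -1.12 (-1.45 to -0.81). With dox it had 25.8 and 12.8 CPM, a ratio of -1.02 (-1.39 to -0.65). Its other arm, miR-139-3p, was under the floor, with 15 counts without rtTA and 5 with it. miR-139-5p and miR-574-3p were the only called microRNAs that were also called with dox, both lower each time.

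miR-702, a mirtron, is excised as a short intron by the spliceosome and not by Drosha. It fell from 8.78 CPM (56 counts) without rtTA to 4.10 CPM (36 counts) with it, a ratio of -1.10 (-1.74 to -0.47). With dox it had 3.06 and 2.93 CPM, a ratio of -0.06 (-1.0 to 0.89). The no rtTA, -dox library was thus the one that stood apart. miR-702 is no longer called where the interval must also exclude 1.5-fold, or with a floor of 100 counts.

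let-7d*, the minor arm of a let-7 hairpin, fell from 74.9 CPM (478 counts) without rtTA to 37.0 CPM (325 counts) with it, a ratio of -1.02 (-1.22 to -0.81). With dox it had 40.1 and 24.5 CPM, a ratio of -0.71 (-0.99 to -0.43). Its guide arm, let-7d, had a ratio of 0.22 without dox, so the arms differed in sign. let-7d* was the call nearest to the threshold, and miR-142-5p, a microRNA of blood cells with a ratio of 0.98 (0.57 to 1.41), lay just short of it. Scaling by TMM put let-7d* at -0.99 and miR-142-5p at 1.0, and DESeq2 size factors put them at -0.97 and 1.03, which exchanges these calls.

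**Figure D2:**
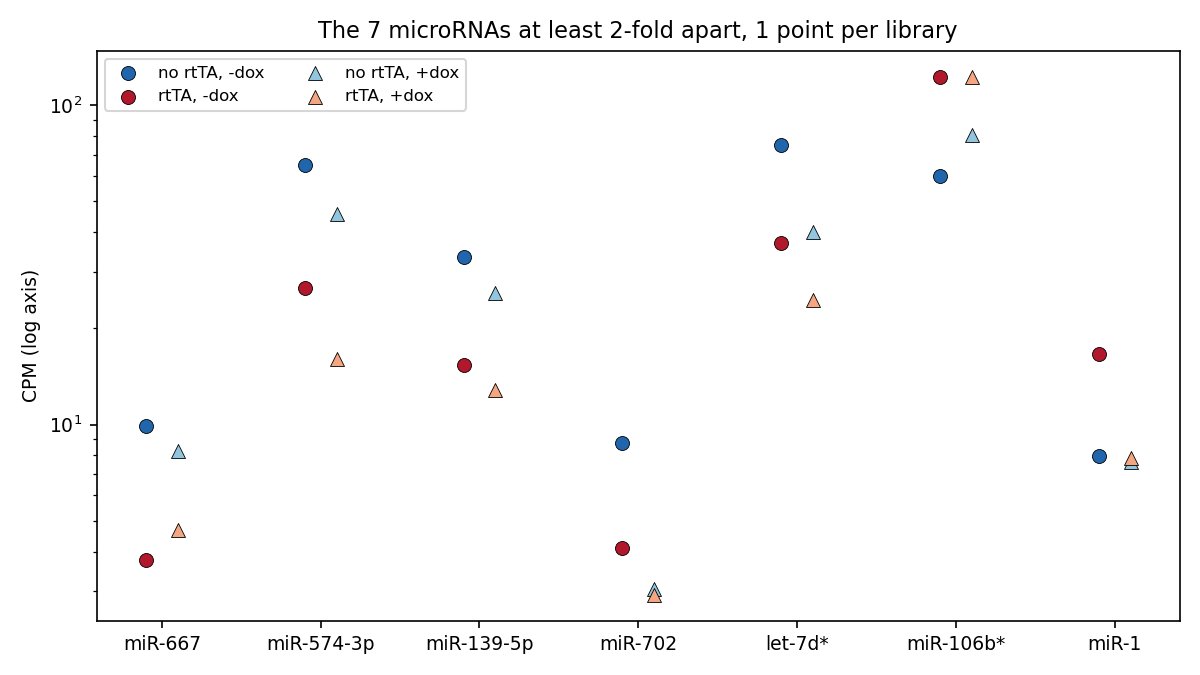
CPM of the 7 called microRNAs on a log axis, 1 point per library, with circles for the libraries without dox and triangles for those with it. miR-106b* is higher and miR-667, miR-574-3p, miR-139-5p and let-7d* are lower in both rtTA libraries, while miR-1 and miR-702 each have 1 library apart from the rest.

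In 5 of the 7 called microRNAs the rtTA libraries did not overlap the libraries without rtTA. For let-7d* the gap was narrow, with 40.1 CPM in the no rtTA, +dox library and 37.0 CPM in the rtTA, -dox library. Of all 372, 56 had both rtTA libraries above both others (15.1%) and 91 had both below (24.5%), and those shares use the same values that made the calls. The 5 that fell were rich in C. They had a median of 47.8% C (31.8% to 57.1%), against 22.7% over all 372. Their median of 13.6% G stood against 23.8% over all. Across the 372 the ratio had a Pearson correlation of -0.19 with the percentage of C and of -0.0038 with the percentage of G. With dox the correlation with the percentage of G was 0.69. These correlations run across microRNAs of the same libraries, and the part of base composition in the calls was not tested.

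Among microRNAs with at least 200 counts in both libraries, the lowest after miR-574-3p and let-7d* were miR-328, with 221 and 119 CPM, and miR-423-5p, with 744 and 432 CPM. Their ratios were -0.89 (-1.01 to -0.77) and -0.79 (-0.85 to -0.72). miR-466h followed miR-574-5p, miR-34b-5p and miR-503 at -0.66. The highest after miR-106b* was miR-805, with 1549 and 2563 CPM and a ratio of 0.73 (0.69 to 0.76). miR-25 (0.64), miR-15b* (0.62), let-7c-2* (0.55), miR-206 (0.52), miR-20a* (0.50) and miR-374 (0.49) came next. The lowest ratios thus lay farther from 0 than the highest, miR-106b* apart. With dox many of both sides crossed 0. let-7c-2* stood at -1.73 there, miR-15b* at -1.46, miR-374 at -1.39, miR-20a* at -0.43 and miR-25 at -0.31. miR-206 (1.30) and miR-805 (0.16) stayed above 0. Of the low ones, miR-423-5p stood at 0.77 with dox, miR-503 at 0.32, miR-466h at 0.28 and miR-328 at 0.06. miR-34b-5p stayed below 0 at -0.33.

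miR-106b* belongs to the miR-106b~25 cluster, 3 hairpins within Mcm7 whose products share seeds with the growth-promoting miR-17~92 cluster. Its members summed to 4285 CPM without rtTA and 5352 CPM with it, a ratio of 0.32 (0.30 to 0.34), and 4 of its 5 listed members were above 0. The median of the 5 was 0.40, and 0.09 with dox, where 4 were above 0 and 1 below. miR-25 had 743 and 1155 CPM, a ratio of 0.64 (0.59 to 0.69). With dox miR-25 had 962 and 774 CPM, a ratio of -0.31. miR-93, the most abundant, had 3169 and 3785 CPM, a ratio of 0.26, and miR-93* stood at 0.40. The guide arm miR-106b, with 261 and 222 CPM, was lower with rtTA at -0.24 (-0.33 to -0.14), opposite to its star arm.

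miR-106b* was thus 18.7% of the counts of its hairpin without rtTA and 35.6% with it. With dox the shares were 24.8% and 32.3%, in the same order. The log2 odds of the star arm differed by 1.27 (1.07 to 1.46) without dox.

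The same comparison was made for the 120 located hairpins with both arms listed, where the arms together had 20 counts or more in both libraries. These hold 117 distinct pairs of arms, and in 25 of the 120 an arm matches several hairpins, so its counts enter each of them. The median difference in log2 odds of the rarer arm was -0.0039, and the odds differed by 2-fold or more, with an interval that excluded equality, in 3 hairpins upward (2.5%) and 2 downward (1.67%). Beside Mir106b, the rarer arm took a larger share with rtTA in Mir30c-1, where miR-30c-1* was 5.40% of its counts and those of miR-30c without rtTA and 11.2% with it, a difference of 1.13 (0.73 to 1.53). Mir30c-2 yields the same miR-30c, so these are not shares of 1 hairpin. With dox these shares were 5.82% and 15.6%, again in that order. Mir582 also passed, with 12.8% and 25.3% for miR-582-3p, on 10 and 25 counts, and an interval of 0.02 to 2.30.

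The share was smaller with rtTA in the other two. let-7d* was 0.746% of its hairpin without rtTA and 0.317% with it, a difference of -1.24 (-1.44 to -1.04). With dox it was 0.490% and 0.299%. miR-671-3p fell from 4.33% to 2.04% of its hairpin, on 31 and 15 counts, and was 1.82% and 1.64% with dox. Of 102 hairpins with both arms past the floor, 34 had both above 0, 37 had both below and 31 had arms on opposite sides. The arms' ratios had a Pearson correlation of 0.39 across these hairpins, which share their libraries, and of 0.38 across the 80 whose arms match no other hairpin. Of those 80, 22 had both above 0, 33 both below and 25 opposite. Of all microRNAs past the floor, the 77 with star names had a median of 0.04 and the 295 others -0.10.

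Markers of other cell types were read because embryonic fibroblast cultures can hold other cells of the embryo, and because fewer cells and less RNA per cell cannot be told apart in bulk RNA. Epithelial markers differed most. miR-205 is typical of stratified epithelium, miR-203 of skin and the miR-200 family of most epithelia. They are shown because miR-205, miR-200a and miR-203 have the highest ratios among the microRNAs called with a floor of 5 counts, and miR-141 shares the seed of miR-200a. All 4 are under the floor used here.
miR-205: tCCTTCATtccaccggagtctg
miR-203: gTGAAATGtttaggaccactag
miR-200a: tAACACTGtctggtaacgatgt
miR-141: tAACACTGtctggtaaagatgg

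miR-205 lies at chr1:193507503-193507524 on the minus strand, inside an exon of 4631405K08Rik, and miR-203 at chr12:112130927-112130948 on the plus strand. miR-200a lies at chr4:156054911-156054932 on the minus strand, in an intron of Ttll10. miR-141, at chr6:124717917-124717938 on the minus strand, has the same seed as miR-200a and lies within 2 mismatches of it, so their reads can be confused.

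miR-205 had 4 counts without rtTA and 76 with it, or 0.627 and 8.66 CPM, and 6 and 17 counts with dox. The ratio without dox was 3.79 (2.37 to 5.70), or 13.8-fold, and with dox it was 1.30 (-0.11 to 2.93). The rtTA, -dox library stood far above the other three. miR-205 missed the floor narrowly, with a mean over the 4 libraries of 3.12 CPM. miR-203 had 4 and 25 counts without dox and 10 and 8 with it, and miR-200a had 3 and 23 and then 11 and 10. Their ratios without dox were 2.18 (0.65 to 4.17) and 2.48 (0.75 to 4.86). miR-141 had 14 and 34 counts, a ratio of 0.82. Each was highest in the rtTA, -dox library by CPM, and with dox the counts of miR-203 and miR-200a lay close in the 2 genotypes.

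All epithelial markers together, 9 of 10 of them listed, had 35 counts without rtTA and 181 with it, or 5.49 and 20.6 CPM, 3.76-fold higher (2.61 to 5.57). Without miR-205 the sum was 31 and 105 counts, a ratio of 1.30 (0.71 to 1.93). Of the 9, 7 were higher and 1 lower with rtTA, and 2 were at 0 in each library. With dox the sums were 7.65 and 11.2 CPM, a ratio of 0.55 (0.03 to 1.08). Even the highest sum is a trace beside the CPM of the mesenchymal microRNAs.

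Muscle markers were also higher with rtTA. miR-206, a microRNA of skeletal muscle precursors, had 246 CPM without rtTA and 352 with it, a ratio of 0.52 (0.43 to 0.61). With dox it had 234 and 575 CPM, a ratio of 1.30, and both rtTA libraries were above both others. Ratios with dox ran with the percentage of G, which was 45.5% in miR-206, and the part of base composition was not tested. miR-133b, the neighbour of miR-206 on chromosome 1, had 6 and 32 counts without dox, a ratio of 1.96 (0.68 to 3.50). With dox it had 8 and 22 counts. miR-133a had 42 and 79 counts, a ratio of 0.45 (-0.11 to 1.03). The 7 listed muscle markers summed to 262 and 383 CPM, a ratio of 0.55 (0.46 to 0.63), with 6 higher and 0 lower. Without miR-206 the sum was 16 and 31.0 CPM, a ratio of 0.96 (0.62 to 1.30), and 0.35 (-0.04 to 0.74) with dox. miR-1 is one of these muscle markers, and the part of muscle cells in its rise was not tested.

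Blood cell markers summed to 82.8 CPM without rtTA and 101 with it, a ratio of 0.28 (0.12 to 0.44), and to 85.5 and 82.8 CPM with dox. Of the 7, 5 were higher and 2 lower. miR-142-5p had 10.5 and 20.7 CPM without dox and 15.4 and 16.4 CPM with it. Its other arm, miR-142-3p, stood at 0.38 (-0.13 to 0.90). miR-223, of myeloid cells, had 36.7 and 44.4 CPM, a ratio of 0.28 (0.04 to 0.52). The red cell microRNAs were mixed, with miR-451 at 0.43, miR-486 at -0.29 and miR-144 at 6 and 2 counts. Neural markers summed to 2385 and 2640 CPM, a ratio of 0.15 (0.12 to 0.18), with 9 of 11 past the floor above 0. Without miR-218, the most abundant of the list, the sum was 794 and 954 CPM, a ratio of 0.26 (0.21 to 0.32). The neural markers past the floor ran from miR-153 at -0.43 to the neuronal miR-124 at 0.58 (-0.006 to 1.19), the latter on 37 and 76 counts. Endothelial miR-126 arms summed to 120 and 134 CPM, and the markers of pluripotent cells to 4 and 7 counts. Liver miR-122 had 16 and 35 counts, a ratio of 0.67 (-0.22 to 1.62). Every one of these sums was thus higher in the rtTA library without dox, though the pluripotent (-1.63 to 2.57) and liver intervals included equality. Of single microRNAs 41.7% were above 0, but a sum follows its most abundant members. With dox the neural ratio was -0.04 (-0.07 to -0.01), but 0.16 (0.11 to 0.21) without miR-218. The endothelial ratio with dox was -0.48 (-0.60 to -0.35). The pluripotent and liver sums were above 0 there, on few counts. The part of these markers in the other differences was not tested.

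**Figure D3:**
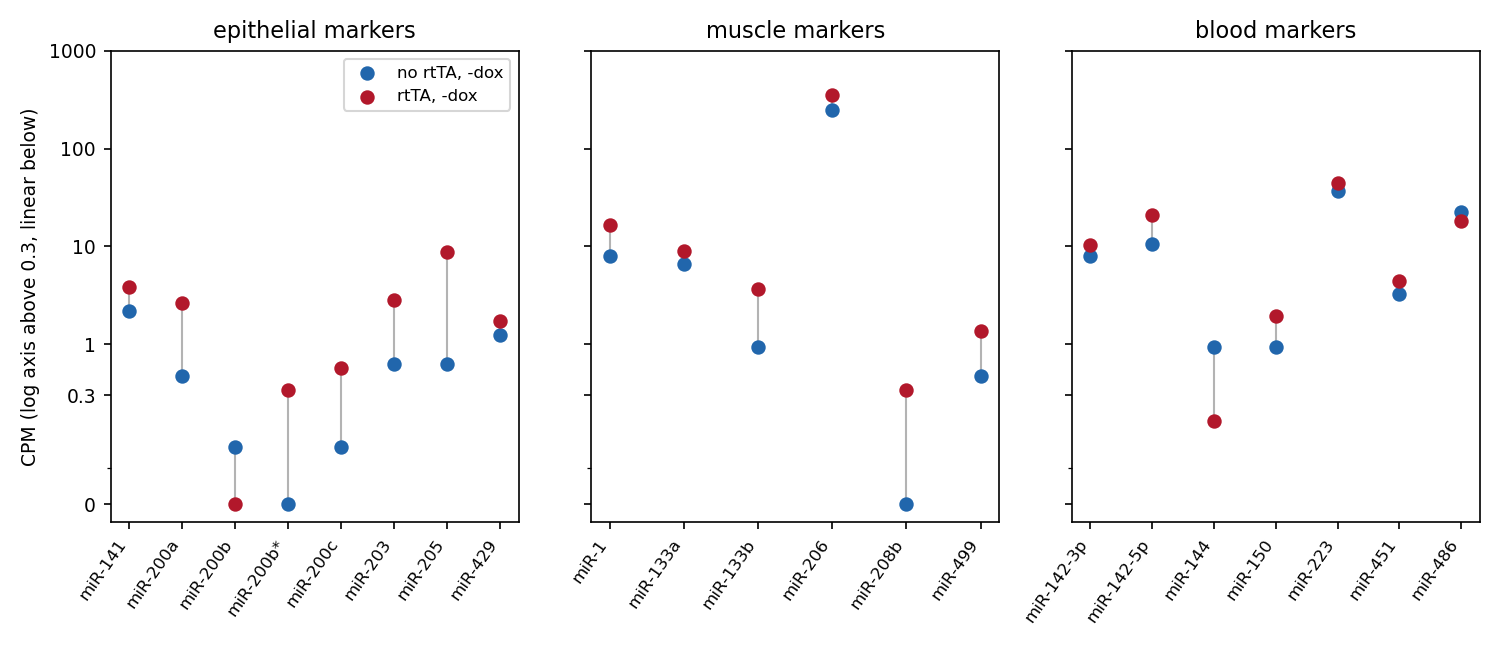
CPM of single epithelial, muscle and blood markers in the 2 libraries without dox, on an axis that is logarithmic above 0.3 CPM and linear below, with 1 point per library and a line joining the pair. The rtTA point lies above the other for 7 epithelial, 6 muscle and 5 blood markers, and miR-205, at 0.627 and 8.66 CPM, has the longest line among the epithelial ones.

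With a floor of 5 counts, 7 microRNAs were called higher and 7 lower of 419 (1.67% each), and with no floor 7 and 8 of 487 (1.44% and 1.64%). Of the added ones, miR-205, miR-203 and miR-200a are epithelial and miR-133b is a muscle marker. miR-184, known from the cornea and other epithelia, had 4 and 24 counts, a ratio of 2.13 (0.58 to 4.11). With the 5-count floor, miR-139-3p and miR-671-3p were the added ones that fell, at -2.04 (-3.86 to -0.51) and -1.51 (-2.50 to -0.57). With no floor miR-106a, at 6 and 1 counts, was added to these.

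The imprinted cluster between Dlk1 and Dio3 on chromosome 12, to which miR-667 belongs, was slightly lower with rtTA along its length. It is expressed from the maternal chromosome as a chain of long noncoding RNAs, Meg3, Rtl1 antisense, Rian and Mirg, that host the hairpins. By location, 66 microRNAs past the floor lie between chr12:109563710-109743784, and 57 of them were below 0. Their median was -0.23, against -0.02 for the 306 others, of which 160 were below 0. 43 intervals lay below equality and 7 above, and 1 microRNA of the 66, miR-667, was called. The sum was 63427 CPM without rtTA and 58112 CPM with it, a ratio of -0.13 (-0.13 to -0.12). The members come from shared primary transcripts and are not independent replicates.

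The shift was found in each segment. The 4 microRNAs of the Meg3 region had a median of -0.39, and the 3 in Rian introns -0.42. The 15 of the Rtl1 antisense region had a median of -0.21, with 13 below 0. The 27 from miR-379 to miR-539 had a median of -0.24, with 22 below 0, and the 17 of Mirg had -0.17, with 15 below 0. No segment lay above 0 without dox.

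Within the cluster the values still varied between neighbours. miR-433 had 2478 and 1677 CPM, a ratio of -0.56, and miR-154 had 1283 and 882 CPM, a ratio of -0.54. miR-323-5p, next to miR-667 in ratio, stood at -0.94. miR-411 had 4531 and 3416 CPM, a ratio of -0.41. miR-541, the most abundant outside the Rtl1 antisense region, had 7431 and 6389 CPM, a ratio of -0.22. miR-379, the first of its segment, had 6908 and 6826 CPM, a ratio of -0.02. miR-369-3p was the highest, with 1883 and 2468 CPM and a ratio of 0.39. miR-136 stood at -0.61 while its other arm, miR-136*, stood at 0.06, so the arms of this hairpin lay farther apart than any segment medians.

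With dox the cluster had a median of -0.29 with 42 of 66 below 0, but the order of the segments differed. The Meg3 region stood at 0.66 and the Rian introns at 0.67, while the segment from miR-379 to miR-539 stood at -0.69 and Mirg at -0.34. miR-433 had a ratio of 0.43 with dox and miR-369-3p one of -1.44, both opposite to their ratios without dox. The Rtl1 antisense region stood at -0.04, with 8 of 15 below 0. The whole cluster was thus lower with rtTA in both pairs by its median. Across the 372 the ratios with dox had a Pearson correlation of 0.69 with the percentage of G. The part of base composition in the medians with dox was not tested. By median the Meg3 region and the Rian introns were above 0 with dox. The segment from miR-379 to miR-539 and Mirg were below 0 in both pairs. The Rtl1 antisense region was near 0 with dox, and the list of its 17 microRNAs had a median of 0.05 there, with 9 above 0 and 8 below.

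**Figure D4:**
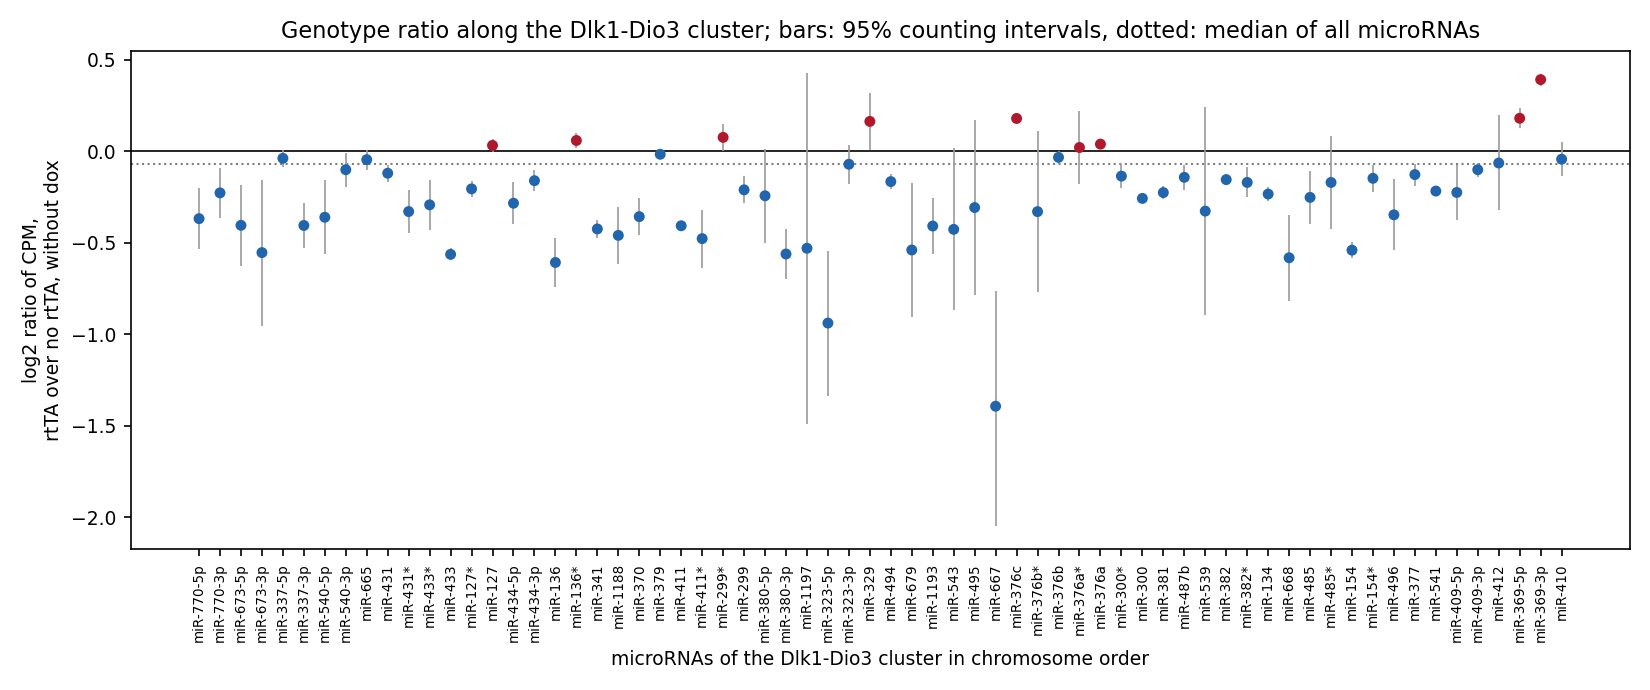
Log2 ratio of rtTA over no rtTA without dox for the 66 microRNAs of the Dlk1-Dio3 cluster in their order along the chromosome, with 95% counting intervals, blue below 0 and red above; the dotted line is the median of all microRNAs. Most points, 57 of 66, lie below 0, and miR-667 is the lowest.

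The miR-34 family, which p53 activates, was below 0 in all 5 of its members past the floor, with a median of -0.32. miR-34a had 7998 and 7070 CPM, a ratio of -0.18. miR-34b-5p had 843 and 504 CPM, a ratio of -0.74 (-0.80 to -0.69), and miR-34c had 2096 and 1360 CPM, a ratio of -0.62, though these are close in sequence and may share reads. With dox 4 of 5 were below 0, with a median of -0.33, and miR-34c stood at 0.41.

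The X-linked cluster of miR-322, miR-351 and miR-503, in which miR-322 has the seed of miR-15 and miR-16 and miR-351 that of miR-125, was also mostly lower, with 8 of 9 below 0 and a median of -0.34. miR-503 had 761 and 481 CPM, a ratio of -0.66. miR-351 stood at -0.52 and miR-322, the most abundant, at -0.33 with 1905 and 1519 CPM. With dox the median was -0.01, so the lower level was not found there.

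MicroRNAs that bypass Drosha, mirtrons and the like, were below 0 in 5 of 5, with a median of -0.39 and miR-702 called. miR-320, the most abundant, had 2552 and 2226 CPM, a ratio of -0.20. miR-877 stood at -0.42, miR-484 at -0.39 and miR-877* at -0.23. With dox their median was 0.20.

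Other families lay above the median of all microRNAs without dox. The let-7 family, which restrains growth and marks differentiated cells, had 11 of 16 above 0 and a median of 0.18, with let-7d* its only call. Its 9 members without star names had 8 above 0, from let-7b at -0.10 to let-7f at 0.38. The family summed to 100799 CPM without rtTA and 114827 with it. The miR-23/27/24 clusters had 7 of 9 above 0 and a median of 0.18, from miR-27a at -0.07 to miR-24-1* at 0.40. miR-221 and miR-222, which act on the cell cycle inhibitor p27, stood at 0.48 and 0.12. With dox the let-7 median was -0.18, with 6 of 16 above 0. Without star names it was 0.0068 there, with 5 above 0 and 4 below. The miR-23/27/24 clusters had a median of -0.49 with dox, with 3 of 9 above 0. For miR-221 and miR-222, 1 was above 0 and 1 below with dox. The higher level of these families was thus not found in both pairs.

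The miR-29 family, known for repressing collagen messages, had 4 of 6 above 0 and a median of 0.19. With dox its median was -0.51, with 0 of 6 above 0. The miR-30 family, whose hairpin is the scaffold of many shRNA vectors, had 7 of 10 above 0 and a median of 0.22, but -0.0048 without its star arms. It ran from miR-30c at -0.56 to miR-30b* at 0.76, the latter on 46 and 107 counts. With dox the miR-30 median was -0.05, with 5 of 10 above 0. The miR-17~92 cluster with its X-linked copy around miR-106a had 6 of 12 above 0 and a median of 0.01, and the miR-15/16 family 4 of 6 and a median of 0.01. Both of these medians change sign with the processing. With dox the median was 0.06 for miR-17~92 with its copy, with 6 of 12 above 0. For miR-15/16 it was -0.30, with 1 of 6 above 0. miR-15b*, at 374 and 790 counts, stood apart from the latter family at 0.62 while its guide arm miR-15b stood at 0.00.

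**Figure D5:**
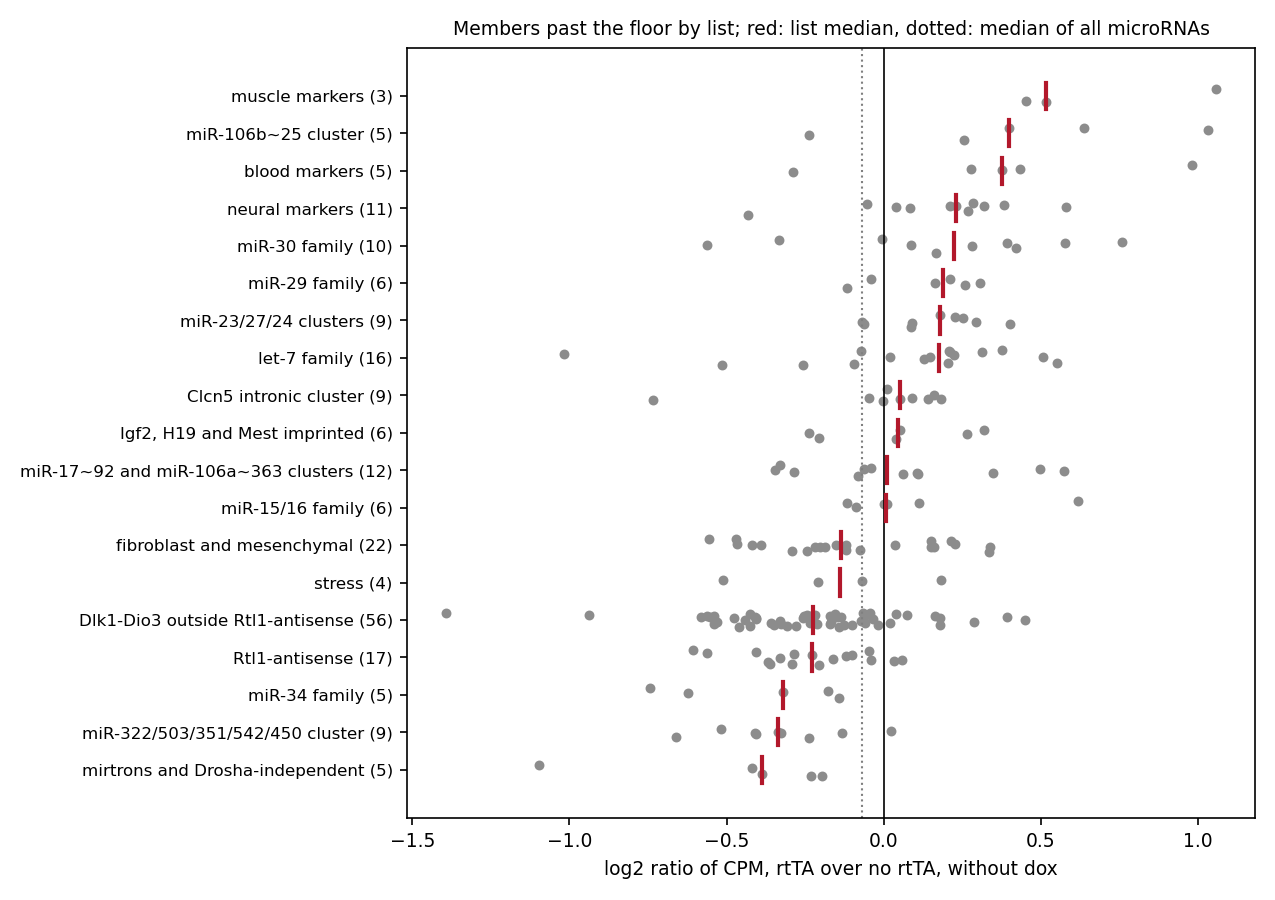
Log2 ratio of rtTA over no rtTA without dox for the members past the floor of each microRNA list, 1 point per microRNA, with the list's median as a red bar, the number of members in parentheses and the median of all microRNAs as a dotted line. The miR-34 family and the Drosha-independent microRNAs lie wholly below 0, and the muscle markers above it.

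Fibroblast and mesenchymal microRNAs as a list had 8 above 0 and 14 below, with a median of -0.14. miR-152 (-0.56), miR-214 (-0.47) and miR-199b (-0.42) were among the lower, and miR-145* (0.34), miR-99a (0.33) and miR-31 (0.21) among the higher. None of the 22 reached 1.5-fold.

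Grouped by shared seed, the 372 microRNAs and their rarer relatives gave 296 families past the floor, and 267 of these were within 1.5-fold (90.2%). By 2-fold, 2 families were higher (0.676%) and 5 lower (1.69%). Of 55 families with at least 2 members, the one called was miR-141 and miR-200a, whose shared seed is capitalised above. Their sum was 17 counts without rtTA and 57 with it, a ratio of 1.29 (0.48 to 2.16), and 0.29 with dox. miR-133a and miR-133b followed, with 48 and 111 counts and a ratio of 0.75 (0.25 to 1.27), then miR-1 and miR-206 at 0.54. The lowest were miR-467d* and miR-467e* at -0.86, miR-466h and miR-466j at -0.64, and miR-132 and miR-212 at -0.59. The muscle and epithelial seeds thus headed the families with several members.

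The genotypes were also compared in the libraries with dox, which share no library with this pair. There rtTA is active and the shRNA takes 2.38% of the counts of the rtTA library, so genotype and induction cannot be told apart in that pair. Across the 372 microRNAs the ratios of the pairs had a Pearson correlation of 0.08 and a Spearman correlation of 0.05, and 198 had the same sign (53.2%). With dox 165 ratios were above 0 (44.4%) and 207 below (55.6%). The pair with dox lay farther apart, with 62 calls (16.7%), 9 higher (2.42%) and 53 lower (14.2%). Of these, 2 were also called without dox, miR-139-5p and miR-574-3p, which is 28.6% of the 7 and 3.23% of the 62. All 5 microRNAs that fell without dox were below 0 with dox, and both that rose were above 0. For miR-702, at -0.06 (-1.0 to 0.89), and miR-1, at 0.04 (-0.53 to 0.61), the intervals with dox included equality.

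At 1.5-fold the pairs had less in common. Of the 26 microRNAs lower without dox, 13 were above 0 and 13 below with dox, and of the 9 higher, 5 were above and 4 below. A linear trend on the percentage of G, which ran with the ratios with dox, was then subtracted from both pairs, and the Pearson correlation was 0.12. After it, the ratios with dox were -0.70 for miR-139-5p, -0.50 for miR-574-3p, 0.45 for miR-106b* and -0.24 for miR-667. let-7d* stood at 0.07 and miR-702 at 0.93, so these no longer lay below 0.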

How the data were processed

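Small RNA was sequenced from 4 libraries of MEFs, extracted with Trizol and phenol-chloroform per the labels' protocols. The authors deposited whole-number read counts per microRNA name and sequence, 1 table per library. For the aligner, its settings and the microRNA annotation, the sources used here say nothing. Tables were joined by name, unlisted microRNAs were set to 0, and counts were divided by the endogenous total (6378964 to 8774056 for the pair, and 6540030 and 7507893 with dox), without the shRNA row. A count of 0 allows up to 3 counts, or 0.470 CPM without rtTA and 0.342 CPM with it. Ratios carry Clopper-Pearson 95% intervals (scipy 1.17.1, Python 3.11.15). Since the reads carry no stated molecular identifiers and PCR copies molecules, intervals and floors cover counting error only. With 1 library per group the pair itself gives no test, and a model of genotype and dox over all 4 libraries was not fitted, since it would treat the genotypes as differing alike with and without induction. Interval and call rules were tested on simulated data.

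Arms were paired by the hairpin in which both were located, and arms without a location were left out. With 0.5 added to each count, an odds difference, with an approximate (Wald) interval for counting error, was called at 2-fold. Of 508 microRNAs, 408 were located by sequence. Named microRNAs are the called ones with their other arms and lists, the 10 most abundant, the 8 extremes on each side at 200 counts or more, each list's most abundant, highest and lowest members, those added by a 5-count floor, those listed once with 5 counts or more, and extreme seeds and arms. Others in the text were chosen after their values were seen. Members and lists were chosen with earlier results of these data known. Alternatives were TMM (edgeR 4.0.16) and DESeq2 1.42.0 size factors, used for scaling only, totals without the top 10 or with the shRNA, floors of 5, 100 or no counts, star arms or near-identical microRNAs left out, and an interval beyond 1.5-fold. The summed lists of markers were also read without their most abundant member.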

Additional observations from a re-analysis of the deposited data

Results flagged for a closer look

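In all, 5 microRNAs were at least 1.5-fold apart in opposite directions in the pair without dox and the pair with dox, with both intervals excluding equality. The difference between the pairs was not tested, since each pair has 1 library per genotype. miR-15b* had a ratio of 0.62 without dox and -1.46 with it, and miR-190 had 0.67 and -0.81. miR-323-5p had -0.94 and 1.16, miR-423-5p had -0.79 and 0.77, and miR-574-5p had -0.77 and 0.79. The first pair held 13.6% and 22.7% G, and the other three 45.5%, 43.5% and 47.8%. The part of base composition in these reversals was not tested.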

How the results depend on the processing

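The main counts were 2 higher and 5 lower. With a floor of 5 counts they were 7 and 7, with no floor 7 and 8, and with a floor of 100 counts 1 and 3, without miR-1, miR-667 and miR-702. Leaving out star-named arms gave 1 higher and 4 lower. TMM and DESeq2 size factors each gave 3 and 4, and moved all ratios by 0.023 and 0.049. The total without the 10 most abundant microRNAs moved them by -0.017, and the shRNA in the total by -0.000087. An interval beyond 1.5-fold gave 2 and 4, without miR-702. The changed counts with other floors follow from more or fewer microRNAs being tested. Arm calls were 2 and 2 at 100 counts, and also 2 and 2 of 95 hairpins when those with an arm of several hairpins were left out, a choice made after seeing the data. Mir30c-1 is the call lost there. Seeds of bases 2 to 7 gave 2 and 5 families. The correlation between the pairs was 0.02 with a floor of 100 counts. The median of the miR-17~92 list ran to -0.06 without star arms, and that of the miR-15/16 list to -0.04 with a floor of 100 counts. For the single microRNAs and lists, 475 values stayed on their side and 22 moved or crossed a threshold. Depth limits microRNAs under 100 counts, whose median interval half-width was 0.61.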

Other observations

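Imprinted microRNAs outside chromosome 12, from Igf2, H19 and Mest, had 4 of 6 above 0 and a median of 0.05. miR-483, in an Igf2 intron, stood at 0.32, miR-335-5p, in Mest, at 0.26, and miR-675-3p, made from H19, at -0.24. The Clcn5 cluster of the X chromosome had 6 of 9 above 0 and a median of 0.05, from miR-188-3p at -0.74, on 46 and 38 counts, to miR-362-3p at 0.18. Stress and inflammation microRNAs were on both sides, with miR-155 at 0.18, miR-210, which hypoxia induces, at -0.21, and miR-146b at -0.51.

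Rosa26 lies at chr6:113067428-113077333, where the rtTA transgene is inserted per the label. The 11 microRNAs of chromosome 6 past the floor and with a single locus lie 60.8 to 82.9 Mb from it, and 7 of them were above 0, with a median of 0.05. miR-141 and miR-200c, under the floor, lie nearer to it. Of the microRNAs listed in 1 library of the pair only, miR-15a* and miR-490 had the most, with 0 counts without rtTA and 5 with it.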
